A study of Rattus norvegicus with 6 samples.

Results

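The facilitative glucose transporters, encoded by the Slc2a genes and known as GLUT proteins, were followed in rat pancreatic islets at 2 ages. The 6 genes Slc2a1, Slc2a2, Slc2a3, Slc2a4, Slc2a5 and Slc2a8 were chosen by name, through array probes whose RefSeq transcript belongs to one of these rat genes. Each was represented by 1 probe, printed once per array, so the set comprised 6 of the 13903 genes that could be named on the array. All 6 probes were well above background, the scanner software's test for a spot brighter than its surroundings, on all 6 arrays.

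The series compared islets of adult male rats with islets of P10 rats, aged 10 days, to describe how islet transcripts differ between young and mature animals. Adult islets came from 3 rats and P10 islets from 3 pools, all freed from the pancreas with collagenase, and no genotype, treatment or strain was named for either stage. The sex of the P10 rats and the age of the adults were not given in the labels. Total RNA was labelled with the dye Cy3 and hybridised to an Agilent array, 1 sample per array.

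Facilitative transporters let sugars cross a membrane down their concentration gradient, with no coupling to ions. In rodent beta cells, the insulin-secreting cells of the islet, the low-affinity transporter GLUT2 carries glucose in, where it is metabolised and so sensed. GLUT1 and GLUT3 are high-affinity transporters of many cell types, GLUT4 is the insulin-responsive transporter of muscle and fat, GLUT5 carries fructose, and GLUT8 resides mostly on inner membranes.

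Every level below is a log2 signal from which the 75th percentile of its array was subtracted. A difference is the adult mean less the P10 mean on that log2 scale, printed with its standard error (SE), and its p-value is from limma adjusted by the Benjamini-Hochberg method across the 18103 probes that entered the test, called at an adjusted p under 0.05. The intensities of 1 probe cannot be set against those of another, so levels are compared only within a gene or a sum of probes. Such a sum adds the unlogged signals of several marker genes, so its brightest probes largely decide it. Adult arrays 2 and 3 differed little beyond the noise between spots of a probe, and so did P10 arrays 1 and 2 by that check. A check across genes with 2 probes made the P10 pair less certain. Each of these pairs was averaged and counted as 1 sample, leaving n = 2 per stage. The array headers place adult array 1 and the P10 arrays on slide 1, and adult arrays 2 and 3 on slide 2. The 2 adult samples counted thus lie on different slides and both P10 samples on slide 1. An adult SD therefore includes any slide difference, and a P10 SD does not. The islet hormone genes Ins1, Ins2 and Gcg were well above background on all 6 arrays. Markers of acinar cells, the enzyme-secreting cells around the islets, were lower in adults for 8 of 10 tested and higher for 0. Their summed level lay between 8.73 and 9.28 in adults and between 10.34 and 10.41 at P10, 0 of the 10 were below background, and their part in the transporter differences was not tested. On adult arrays the percentile subtracted lay between 10.93 and 11.36, and on P10 arrays between 9.92 and 9.99. The median difference over all probes tested was -0.24, against -0.03 with quantile normalization. Relative to all probes, a rise is thus larger by 0.24 than printed and a fall smaller by as much. Slc2a3, for example, then stands at -1.87.

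Of the 6 transporter genes, 3 were higher in adults, 1 was lower and 2 did not pass the test. Slc2a2 rose 9.05-fold and Slc2a4 rose 3.85-fold, Slc2a5 rose 1.43-fold, and Slc2a3 fell. Among all probes tested, 21.2% were called higher and 31.1% lower, 52.2% in all, and among named genes 52.3%, so calls were common on these arrays, and 4 of 6 members called is near that background. The lower calls made up 59.5% of all calls, and 48.0% with median scaling. The stages did not overlap for any of the 6 members, 5 being above P10 on each adult array and 1 below. Of all probes tested 31.9% were above and 45.9% below in this way, 77.8% together. The difference of Slc2a2 stood at percentile 98.4 of all probes tested, that of Slc2a4 at 93.3 and that of Slc2a3 at 9.8, while Slc2a1, Slc2a5 and Slc2a8 lay between percentiles 61.0 and 73.8.

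**Figure D1:**
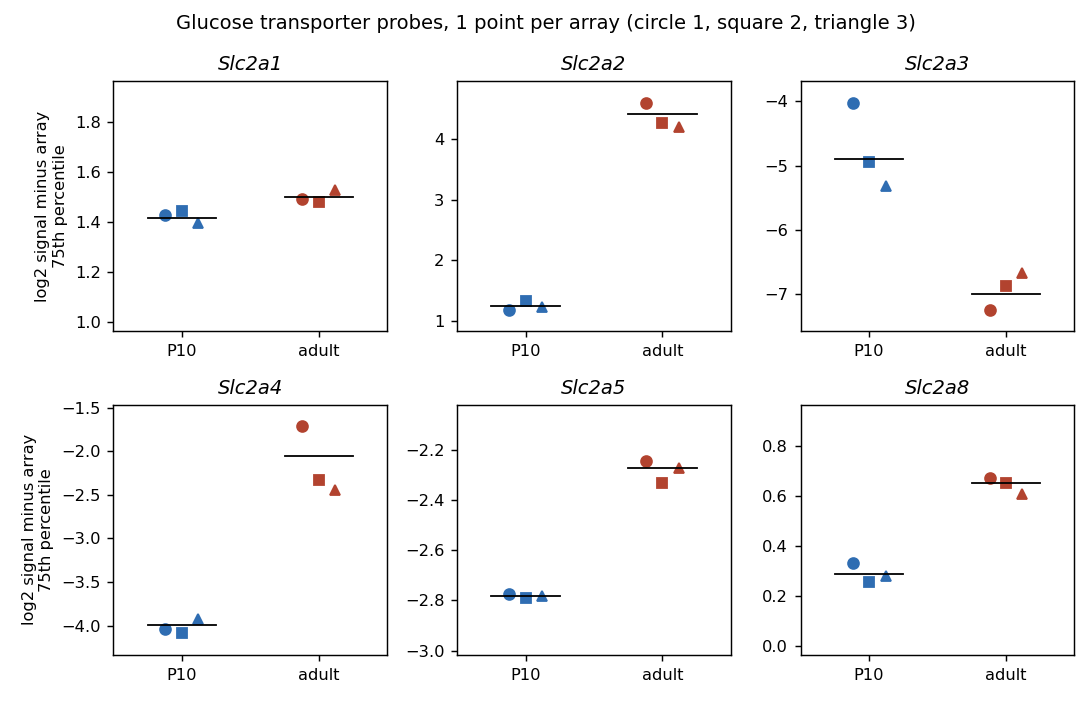
Relative log2 signal (vertical axis, own range per panel) of the 6 transporter probes on each P10 (blue) and adult (red) array, with bars at the mean of the 2 samples counted per stage. Slc2a2 lies at 4.20 to 4.60 on adult arrays and at 1.19 to 1.32 at P10, while the Slc2a1 points of both stages lie within 1.40 and 1.53.

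Slc2a2 encodes GLUT2, the main glucose transporter of rodent beta cells, also found in liver, kidney tubule and intestinal epithelium. Its relative log2 signal was 4.60, 4.27 and 4.20 on adult arrays 1 to 3, and 1.19, 1.32 and 1.23 on P10 arrays 1 to 3. All adult arrays stood above all P10 arrays, and the gap of 2.88 between the stages exceeded the range of 0.40 within adults and of 0.14 within P10. Averaged over the samples counted, adults reached 4.42 ± 0.26 and P10 islets 1.24 ± 0.02 (SD, n = 2 each), which differ by 3.18 (SE 0.18, limma adjusted p = 0.00177). Over the 18 other settings tried, the difference ran from 2.99 to 3.48 and passed the test in each.

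The RefSeq promoter window of Slc2a2, the 250 bases before its annotated start in the GRCr8 assembly, is shown beside those of Slc2a1, whose difference did not pass the test, and of the fructose transporter gene Slc2a5, since these genes differed by 3.18, 0.08 and 0.51. RefSeq windows were matched for 4 of the 6 members. Capitals mark TAAT, the core letters bound by homeodomain proteins, and the GC box GGGCGG, each on either strand (the reverse reads ATTA and CCGCCC). The windows are written 5′ to 3′ on the gene's strand.
Slc2a2 (chr2:113540120-113540369, + strand): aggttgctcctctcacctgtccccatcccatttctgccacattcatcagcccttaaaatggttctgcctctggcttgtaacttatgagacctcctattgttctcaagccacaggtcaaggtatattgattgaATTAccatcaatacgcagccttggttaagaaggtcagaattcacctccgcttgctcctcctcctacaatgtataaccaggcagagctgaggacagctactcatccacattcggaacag
Slc2a1 (chr5:138002272-138002521, + strand): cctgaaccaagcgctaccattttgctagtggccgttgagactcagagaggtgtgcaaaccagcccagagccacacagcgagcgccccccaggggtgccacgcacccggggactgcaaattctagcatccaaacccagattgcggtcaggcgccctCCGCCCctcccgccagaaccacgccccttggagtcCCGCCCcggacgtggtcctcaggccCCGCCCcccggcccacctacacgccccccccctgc
Slc2a5 (chr5:165865929-165866178, + strand): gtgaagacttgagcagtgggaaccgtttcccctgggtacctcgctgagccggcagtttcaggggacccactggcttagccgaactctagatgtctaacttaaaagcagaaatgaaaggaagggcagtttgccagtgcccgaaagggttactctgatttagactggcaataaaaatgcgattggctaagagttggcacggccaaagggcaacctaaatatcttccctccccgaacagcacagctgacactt
The Slc2a2 window held 1 TAAT match, beginning 118 bases before the start, and 0 GC boxes. In the Slc2a1 window there were 3 GC boxes and 0 TAAT matches, and its GC content was 68.4% against 47.2% for Slc2a2, 50.8% for Slc2a5 and a median of 51.2% over all windows. Neither motif occurred in the Slc2a5 window. TAAT was found in 57.0% of 33469 windows of this length and GGGCGG in 30.5%, and these matches are letters only, not measured binding sites. The TATA box letters TATAAA, present in 12.9% of windows, were in none of the 4 member windows. The letters CCAAT, present in 34.0%, occurred once in the Slc2a5 window and 3 times in that of Slc2a8, on either strand.

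Markers of beta cells moved with Slc2a2 in part. Of 7 tested, adults were higher for 4, lower for 1 and not called for 2. The proprotein convertase gene Pcsk1 rose by 3.57, the beta cell transcription factor gene Nkx6-1 by 2.92, the granule zinc transporter gene Slc30a8 by 2.87 and the peptide gene Ucn3 by 2.67. Ins1 fell by 0.93 (limma adjusted p = 0.025). The summed level of the 7 markers, scaled in the same way, overlapped between the stages. It was 8.0 to 8.52 on adult arrays against 8.36 to 8.51 at P10, and 0 of the 7 were below background. In whole islets, fewer cells of a type and less RNA per cell cannot be told apart.

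Other tissues with GLUT2 were also followed by their markers. Enterocyte markers, from the absorptive cells of the intestine, were lower in adults for 9 of 9 tested, with summed levels between 2.95 and 3.11 on adult arrays but between 8.10 and 8.18 at P10, opposite in direction to Slc2a2. Apoa4 was not well above background on any adult array. Of 5 hepatocyte markers tested 2 were higher, 2 lower and 1 not called. Summed over the 7 on the array, levels lay at 3.68 to 4.12 in adults and 3.60 to 3.67 at P10, with Tat and Ahsg not above background on any adult array. The part of these cells in the Slc2a2 difference was not tested.

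Slc2a1 encodes GLUT1, a widely expressed transporter, known from the blood-brain barrier and from human red cells. It stood at 1.49, 1.48 and 1.53 on adult arrays 1 to 3, and at 1.43, 1.44 and 1.40 on P10 arrays 1 to 3. The lowest adult array lay above the highest P10 array by only 0.04. The difference was 0.08 (SE 0.13, limma adjusted p = 0.614), with a 95% interval from -0.28 to 0.44. A rise of up to 0.44 in log2 is thus within the interval. The setting with the largest value was median scaling, at 0.38 (limma adjusted p = 0.139). Of 5 endothelial markers tested 0 were called either way, and of 6 erythroid markers 2 were higher, 1 lower and 3 not called. Summed endothelial levels lay between 5.35 and 5.63 in adults and between 5.10 and 5.14 at P10, and erythroid levels between 5.71 and 5.85 and between 5.19 and 5.22.

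Slc2a3 encodes GLUT3, the high-affinity transporter best known from neurons and also present in leukocytes. Its signal was dim, with processed intensities of 17.3, 17.5 and 19.1 on adult arrays 1 to 3 and 62.7, 31.4 and 25.04 on P10 arrays 1 to 3. The lowest intensities accepted as well above background ran from 7.20 to 9.45 for adult and from 6.60 to 7.86 for P10 arrays, so the adult signals lay close to the limit of measurement. In relative log2 signal the adult arrays stood at -7.24, -6.87 and -6.67 and the P10 arrays at -4.02, -4.95 and -5.32. All adult arrays were below all P10 arrays, while the P10 arrays themselves spread over 1.30, the widest range of any member within a stage. P10 arrays 1 and 2, averaged as 1 sample, lay further apart than P10 arrays 2 and 3.

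Mean Slc2a3 signal was -7.01 ± 0.33 in adults against -4.90 ± 0.59 at P10 (SD, n = 2 each), which differ by -2.10 (SE 0.37, limma adjusted p = 0.015). This is a 4.30-fold lower signal in adults. The size depended on the processing. It was -1.31 with quantile normalization (limma adjusted p = 0.0264), and with the normexp background model it was -0.38 and did not pass the test (limma adjusted p = 0.0874). Leukocyte markers moved the other way, 9 of 9 tested being higher in adults, with summed levels of 4.0 to 4.12 against 2.47 to 2.55 at P10. Of the 10 on the array, 2 were not above background on any P10 array. Of 4 neuronal markers tested 3 were higher in adults and 1 was not called, with summed levels of 2.15 to 2.40 against -1.18 to -1.11. The part of either cell type in the Slc2a3 difference was not tested.

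Slc2a4 encodes GLUT4, which insulin brings to the surface of muscle and fat cells. It stood at -1.72, -2.33 and -2.44 on adult arrays 1 to 3, and at -4.04, -4.09 and -3.93 on P10 arrays 1 to 3. Adult array 1 was the highest, and each adult array was above each P10 array by at least 1.48. Adults averaged -2.05 ± 0.47 and P10 islets -3.99 ± 0.10 (SD, n = 2 each), which differ by 1.94 (SE 0.28, limma adjusted p = 0.00928). All 18 other settings gave a call in the same direction, from 1.46 with normexp to 2.30 on slide 1 alone.

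Markers of fat and striated muscle did not move in 1 direction with Slc2a4. Of 3 adipocyte markers tested the adipokine gene Adipoq was higher in adults by 2.87, the lipid droplet gene Cidec lower, at -5.80, and Fabp4 not called. Lep was not above background on any of the 6 arrays. Levels summed over the 4 adipocyte markers on the array ran from 2.54 to 2.98 in adults and from 3.29 to 3.38 at P10. Of 5 striated muscle markers tested 1 was higher and 3 were lower. Levels summed over the 6 on the array were 0.25 to 0.53 in adults and -1.55 to -1.46 at P10. That sum mostly follows the brightest probe, of the muscle actin gene Acta1, at 0.19 to 0.48 in adults and -2.31 to -2.23 at P10. Myod1 was not above background on any array. The part of these cells in the Slc2a4 difference was not tested.

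Slc2a5 encodes GLUT5, the fructose transporter, best known from the brush border of the small intestine. It stood at -2.24, -2.33 and -2.27 on adult arrays 1 to 3, and at -2.78, -2.79 and -2.78 on P10 arrays 1 to 3. The stages were separated by 0.45, with a range of 0.09 among adults and of 0.02 at P10. The difference was 0.51 (SE 0.13, limma adjusted p = 0.0369), a 1.43-fold rise. It kept its direction under the other settings but did not pass the test without P10 array 3, where the fit rests on 3 samples (0.51, limma adjusted p = 0.384), nor with no filter on dim probes (0.51, limma adjusted p = 0.0585). With median scaling it was 0.81.

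The difference of Slc2a5 was opposite in direction to that of the enterocyte markers. The brush border gene Vil1 stood at -1.62 and the intestinal transcription factor gene Cdx2 at -4.01, both well above background on all 6 arrays. The lipid-binding protein genes Fabp1 and Fabp2 were each well above background on 1 of the 3 adult arrays and on all P10 arrays. The part of intestinal cells in the Slc2a5 difference was not tested.

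**Figure D2:**
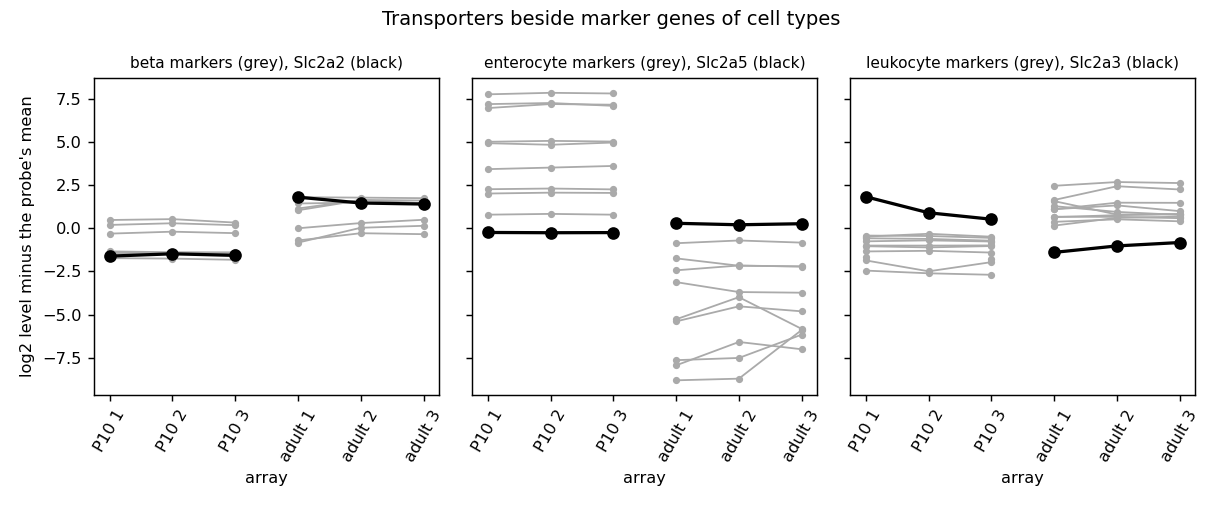
Log2 level minus each probe's own mean over the arrays (vertical axis) on the 6 arrays (horizontal axis), for the marker genes of a cell type in grey and 1 transporter in black; lines join arrays of a stage only to follow a gene and the arrays have no order. Enterocyte markers are all higher at P10 while Slc2a5 is 0.51 higher in adults, and leukocyte markers are higher in adults while Slc2a3 is lower there.

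Slc2a8 encodes GLUT8, which carries a sorting signal that keeps it on intracellular membranes. It stood at 0.67, 0.65 and 0.61 on adult arrays 1 to 3, and at 0.33, 0.26 and 0.28 on P10 arrays 1 to 3. Every adult array was above every P10 array, with a gap of 0.28. The difference of 0.36 (SE 0.13, limma adjusted p = 0.0807) did not pass the test, and its 95% interval ran from 0.00 to 0.73. With each array as its own replicate the value was 0.36 (SE 0.07) and passed, with a limma adjusted p of 0.00575.

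On slide 1, where adult array 1 meets the 3 P10 arrays, the differences were 3.36 for Slc2a2, 2.30 for Slc2a4, 0.54 for Slc2a5, 0.38 for Slc2a8, 0.07 for Slc2a1 and -2.48 for Slc2a3. The fit with slide as a block gave the same values, since slide 2 held no P10 array. These values rest on 1 adult array, assumed to vary like the P10 arrays. When adult array 1 was left out instead, so that each slide held 1 stage, Slc2a2 stood at 2.99, Slc2a4 at 1.61 and Slc2a3 at -1.87.

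**Figure D3:**
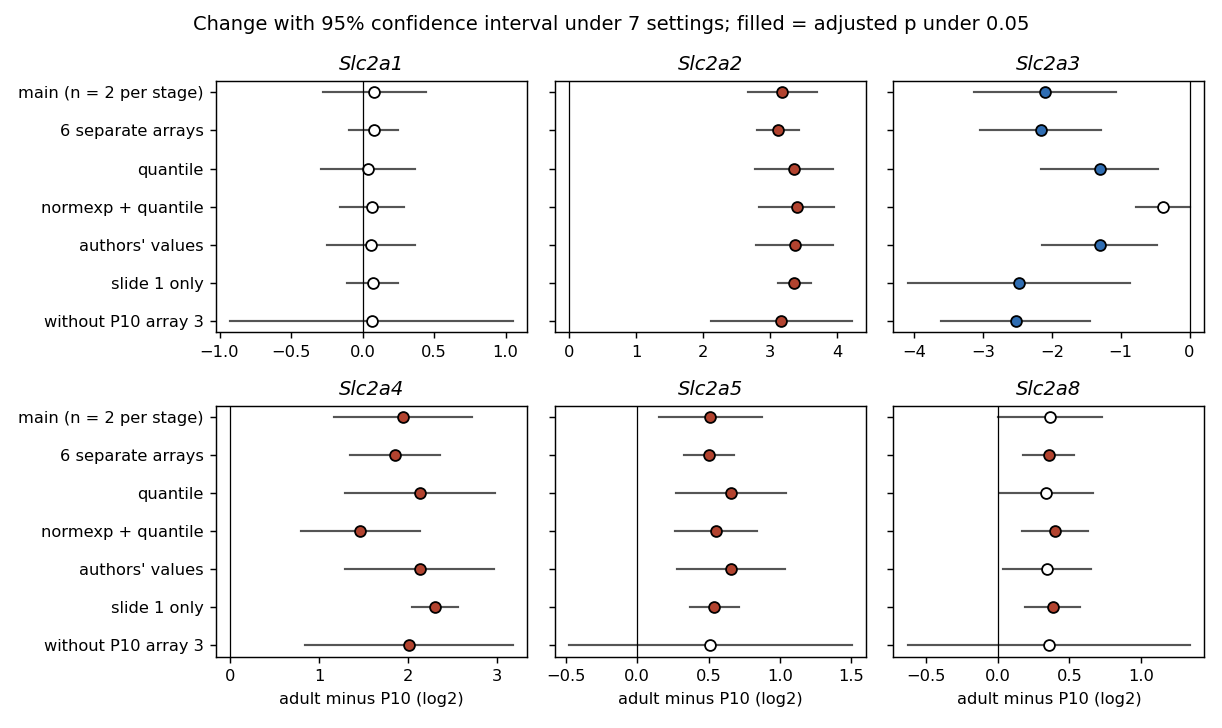
Adult minus P10 difference in log2 (horizontal axis, own range per panel) with its 95% interval for each transporter under 7 settings, filled where limma's adjusted p was under 0.05. Slc2a2 and Slc2a4 are filled throughout, Slc2a1 in no setting, and Slc2a3 shrinks from -2.10 to -0.38 with normexp.

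Genes with the most similar profile were sought for each member among 10203 protein-coding genes measured on all 6 arrays. Similarity was the root mean square difference between 2 log2 profiles, each centred on its own mean over the 6 arrays, and since the arrays fall into 2 stages it mostly finds genes with a like stage difference. For Slc2a2 the nearest were Ppp4r4 (0.07), Wfdc21, Sez6l2, Mug1 and Crmp1 (0.08 each), with differences of 3.03 to 3.22. Slc2a4 was nearest to Bco2 (0.04), Alg2, Cmahp, Slc66a3 and Ankrd1 (0.07). Slc2a5 lay within 0.03 of Ogfrl1, Rin2, Angpt2, Rlim and Ddx19a, and Slc2a8 within 0.04 of Zc3h14, Ndufs1, Stx6, Dlat and Nelfa. Slc2a1 lay within 0.03 of Agfg1, Csnk1d, Cdh13, Gspt1 and Mtrex. No gene came as close to Slc2a3, whose nearest were Ina (0.28), Aqp3, Otos, Defa9 and Vax1 (0.32).

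Of the other Slc2a genes, 4 had a named probe and 3 were tested. Slc2a6, a transporter of lysosomes and leukocytes, rose by 2.05 (SE 0.19, limma adjusted p = 0.00366), with adult arrays at -2.69 to -2.25 and P10 arrays at -4.55 to -4.47. Slc2a10, which encodes GLUT10, fell by 1.94 and stood at -3.57 to -3.31 in adults and -1.55 to -1.40 at P10. Slc2a12 fell by 1.25, a call lost without P10 array 3. Slc2a13, the proton-coupled inositol transporter gene, was well above background on 1 array of each stage and was not tested. Counting these with the members, 4 of 9 tested Slc2a genes were higher in adults and 3 lower. Among all named genes tested, 23.5% were called higher and 28.8% lower, so calls were common. Those of Slc2a3, Slc2a5 and Slc2a12 were each lost in some setting.

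Lists of genes that act around the transporters were read against all 11185 named genes tested, of which adults were higher for 23.5% and lower for 28.8%. The median difference over them was -0.13. The sodium-coupled sugar and inositol transporters of the Slc5a family gave 0 higher and 3 lower of 5. The median was -3.28, or -2.32 with the genes below background in adults set at their bound. Slc5a1, which encodes the intestinal glucose carrier SGLT1, stood at -3.28 (SE 0.26, limma adjusted p = 0.00282), and at -1.78 with normexp. Slc5a11, an inositol transporter gene, and Slc5a4 were not well above background in adults and were at least 354-fold and at least 4.997-fold lower there, folds taken against the lowest well-measured signal of each adult array. These bounds hold for the processed signals only, and normexp, which adds an offset of 50, gave log2 differences of -4.76 for Slc5a11 and -0.34 for Slc5a4. Enterocyte markers were lower in adults on the same arrays, and their part in these falls was not tested.

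Genes of transporter trafficking and surface retention gave 4 higher and 2 lower of 12, with a median of 0.32. Mgat4a, a glycosyltransferase known to act on GLUT2 in mouse beta cells, fell by 3.48 (SE 0.13, limma adjusted p = 0.00133), standing at -0.55, -0.68 and -0.58 on adult arrays and 2.86, 2.94 and 2.87 at P10. It thus moved opposite to Slc2a2. The vesicle SNARE gene Vamp2 rose by 1.35 and the sorting receptor gene Sort1 by 1.05. Lnpep, which encodes the aminopeptidase that travels with GLUT4 in its storage vesicles, was not well above background at P10 and was at least 3.52-fold higher in adults on the processed signals. This bound is not firm, since the log2 difference of Lnpep was only 0.69 with normexp and 1.28 on slide 1, both under it. Without P10 array 3 the list gave 0 higher and 1 lower, and without adult array 3 it also gave 1 lower.

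Among transcription factors tied to Slc2a2 or to its cell types, the counts were 3 higher and 3 lower of 7, and the median was -0.24. Nkx6-1 and Neurod1, of endocrine cells, rose by 2.92 and 2.45. Hnf4a, a factor of liver, intestine and islets, fell by 1.78 (by 0.68 with normexp), and Pparg, a lipid-sensing nuclear receptor gene, by 1.24. The call of Hnf4a was lost without adult array 3 and that of Pparg without P10 array 3, where 1 gene of the list was lower.

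Enzymes that act on glucose after entry gave 1 higher and 2 lower of 5, with a median of -0.46. The hexokinase gene Hk3, best known from leukocytes, rose by 4.95. G6pc1, the glucose-6-phosphatase gene of liver, kidney and intestine, stood at -7.03, and Adpgk, a kinase gene that uses ADP in place of ATP, at -0.74. The call of Adpgk was lost without P10 array 3 and with median scaling. Enzymes of fructose and polyol metabolism gave 0 higher and 3 lower of 5, with a median of -1.29. The fructose pathway genes Tkfc and Khk stood at -1.59 and -1.29, and the gluconeogenic gene Fbp1 at -5.69. These 3 genes were thus lower in adults, where the signal of the fructose transporter gene Slc2a5 was higher. Markers of enterocytes, which also use these enzymes, were lower in adults on the same arrays, and their part was not tested.

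**Figure D4:**
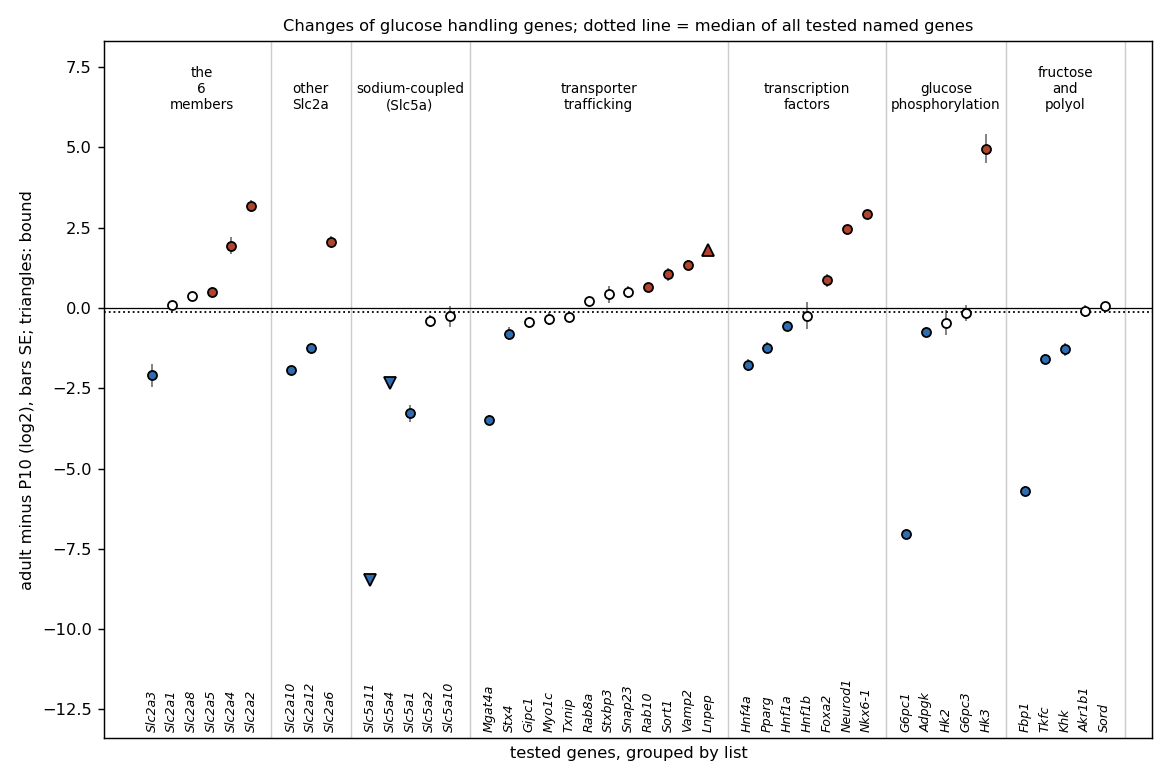
Adult minus P10 difference in log2 with SE (vertical axis) of the 6 transporter genes and of the tested genes of each list (horizontal axis), red where called higher, blue where called lower and open where not called; triangles mark Slc5a11, Slc5a4 and Lnpep, below background in 1 stage, at their bound. The members run from -2.10 to 3.18, and the points of the glucose phosphorylation genes from -7.03 to 4.95.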

How the data were processed

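The submitters' processing notes name Agilent Feature Extraction 11.0.1.1, with which the authors read the intensity of each spot. Processed intensities are background-subtracted, per the file headers. A second deposited table holds normalized log2 values, made by a method not given in the sources used here, with array medians of 9.92 to 9.94 for mRNA probes, and these served as an alternative. Members and lists were chosen with earlier results of these data known.

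Of each array, the 42136 spots other than controls were used. Of these, 673 to 810 outlier spots per array were left out, the log2 intensities of a probe's spots averaged, and each array's 75th percentile over probes subtracted. Probes well above background numbered 17823 to 18725 on single arrays, with 0 saturated. Symbols came from RefSeq accessions of the GRCr8 assembly (14294 probes); the array uses an older build, so the only coordinates given are those of the RefSeq promoter windows, in GRCr8. Probes well above background on all 3 arrays of either stage entered limma 3.58.1 (lmFit, then eBayes) under R 4.3.3. Each gene of a list entered with its brightest probe; up to 4 called genes per list, those with the largest difference, are named; a few list genes are not reported here and enter no list count.

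Array differences at one spot of a probe correlated with those at another at r = 0.06, both between adult arrays 2 and 3 and between P10 arrays 1 and 2, against 0.87 and 0.84 for the other adult pairs and 0.24 and 0.12 for the other P10 pairs (2947 probes). Pairs under 0.1 were averaged. Across 142 genes with 2 bright probes, rho was 0.10 for the adult pair but 0.38 for the P10 pair, against 0.50 and 0.47 for the other P10 pairs, so the P10 averaging is the less certain, and the labels name separate rats and pools. The p-values rest on the spread between these samples as moderated by limma, which draws each probe's variance toward that of all probes. Slc2a1, Slc2a5 and Slc2a8, with SDs of 0.00 to 0.04 within a stage, thus carried SEs of 0.13. The number of arrays limits the precision. The fit was also run on simulated data with independent noise and few changed probes. These arrays had many changed probes, so no error rate is drawn from that run. The files hold no mean spot signal, so normexp used the median signal.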

Additional observations from a re-analysis of the deposited data

How the results depend on the processing

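In 18 other settings the 6 transporter genes kept their direction. Slc2a8 passed the test with each array as its own replicate (0.355), median scaling (0.665), normexp (0.401), slide as a block (0.382), slide 1 only (0.382), the replicate block (0.355), and the adult pair averaged with P10 arrays separate (0.362), a setting chosen after seeing the data. When single arrays were left out, the Slc2a8 difference ran from 0.344 to 0.383. The lowest value came without adult array 1, where 3 samples remain, with 1 averaged adult sample on slide 2. Slc2a3 did not pass with normexp (-0.384), which leaves 0 members lower. Slc2a5 did not pass without the filter on dim probes (0.512), and with single arrays left out it ran from 0.484 to 0.527, failing without P10 array 3, where 3 samples remain. Probes called lower numbered 9052 with slide as a block, 9027 on slide 1 and 8521 without the filter, against 5625. With single arrays left out, probes called higher ran from 1550 to 5766 (3829 with all arrays) and lower from 2532 to 7499. The lowest counts were without P10 array 3 and the highest without adult array 1, fits that each rest on 3 samples with 1 sample in a stage. Genes of the lists called higher ran from 4 to 10 (9 with all arrays) and lower from 9 to 15 (15 with all, 23 with slide as a block and 23 on slide 1), the lowest again without P10 array 3. Of 20 named genes outside the 6, 9 of the differences recomputed lost the call and 0 turned direction. Without P10 array 3 these were Slc2a12, Lnpep, Sort1, Vamp2, Pparg, Khk and Adpgk. Adpgk also lost it with median scaling, and Hnf4a without adult array 3. Of the Slc5a genes 3 were lower, against 5 with slide as a block. The count was 1 with the authors' values and with probes above background on all 6 arrays. Slc5a11 and Slc5a4 were not among the probes tested in those settings, so their calls were not lost there. Trafficking genes called lower numbered 4 with each array as its own replicate and 5 on slide 1 and with slide as a block, against 2. The cause of the other shifts was not tested.

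Deviations of same-numbered arrays from their stage means correlated at -0.32, 0.09 and -0.36. Deviations of 3 arrays from their own mean are not independent, so these values cannot decide whether the replicate numbers pair the samples. With the replicate block 4712 probes were higher and 6782 lower, Slc2a2 stood at 3.112 and Slc2a8 at 0.355 with a limma adjusted p of 0.0438.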
